A study of Mus musculus with 10 samples.

Results

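The 10 genes described here build, divide, move and fold mitochondria in cardiomyocytes (CMs) of ageing mice. They are Mfn1, Mfn2 and Opa1 of membrane fusion, Dnm1l and Fis1 of fission, Rhot1 and Armcx3 of transport, and Immt, Chchd3 and Apool of the cristae. They were taken by gene symbol from the deposited expression table of 37819 features, where each symbol had a row, and all 10 passed the filter for low values. RNA of purified CMs was sequenced in 5 libraries from old mice (20 months) and 5 libraries from young mice (3 months), all of the inbred strain C57BL6J and with no treatment. Hearts were digested on a Langendorff setup, which perfuses the isolated heart, and CD31-, SCA1- and CD45-positive cells (endothelial, stromal and immune cells) were then removed. The labels number the libraries but do not say that each came from a separate mouse, so the p-values measure the spread between libraries. The values are FPKM, numbers of sequenced fragments normalised to transcript length and to mapped fragments, so levels can be set side by side between genes. Genes with copies elsewhere in the genome, such as Armcx3 below, are an exception, since some of their reads could be left out.

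Mitochondria join and divide through GTPases of the dynamin superfamily. The mitofusins Mfn1 and Mfn2 join outer membranes, Opa1 joins inner membranes and holds cristae tight, and Dnm1l (Drp1) is recruited from the cytosol to constrict and cut the organelle. Adult CMs are packed with mitochondria between their myofibrils, and their inner membranes are folded into dense cristae, whose necks are held by the mitochondrial contact site and cristae organising system (MICOS). Immt (Mic60), Chchd3 (Mic19) and Apool (Mic27) are subunits of this complex. Rhot1 (Miro1) and Armcx3 (Alex3) sit on the outer membrane and link mitochondria to the motors of the cytoskeleton.

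Of the 10 genes, Armcx3 alone passed the test between the ages. Its mean fell to 2.32 FPKM in old CMs, against 4.77 FPKM in young CMs. The 3 cristae genes and Rhot1 were lower in old CMs, with differences of -14.4% to -8.83% in mean FPKM and no overlap between the ages, but did not pass the test over all genes. Mfn1 differed by -9.04% in mean FPKM, but its libraries overlapped between the ages and it did not pass the test. Mfn2, Opa1, Dnm1l and Fis1 differed by less than 5% in mean FPKM between the ages, and their libraries overlapped.

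The ages were compared with limma on log2(FPKM + 1) over 12340 features, those whose mean over the libraries reached 1 FPKM. Calls were made at a Benjamini-Hochberg adjusted p of at most 0.05, and a log2 difference is old minus young on this scale. This called 1 of the 10 genes lower and 0 higher, where it called 1.09% of all tested features lower and 0.689% higher. The log2 difference was below 0 in 9 of the 10 genes, as it was in 68.7% of all tested features. All 5 old libraries lay below all 5 young ones in 5 of the 10 genes, against 5.72% of all tested features. The unadjusted p was under 0.05 with a lower level in old CMs in 6 of the 10 genes, against 17.4% of all tested features, and with a higher level in 0, against 3.51%. The median of the 10 log2 differences was -0.13, and that of all tested features was -0.058. Most tested features thus leaned to lower values in old CMs, and the differences as deposited are not adjusted for this. Its cause was not tested. Median-ratio scaling divides each library by the median of its ratios to the geometric mean of each feature over the libraries. It moved the median of all features to -0.00012 and that of the 10 genes to -0.064. With this scaling, of the 10 genes, Armcx3 alone kept its ages apart, against 1.67% of all features with all old libraries lower. The calls over all features split into 135 lower and 85 higher as deposited, and into 30 lower and 105 higher with this scaling.

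**Figure D1:**
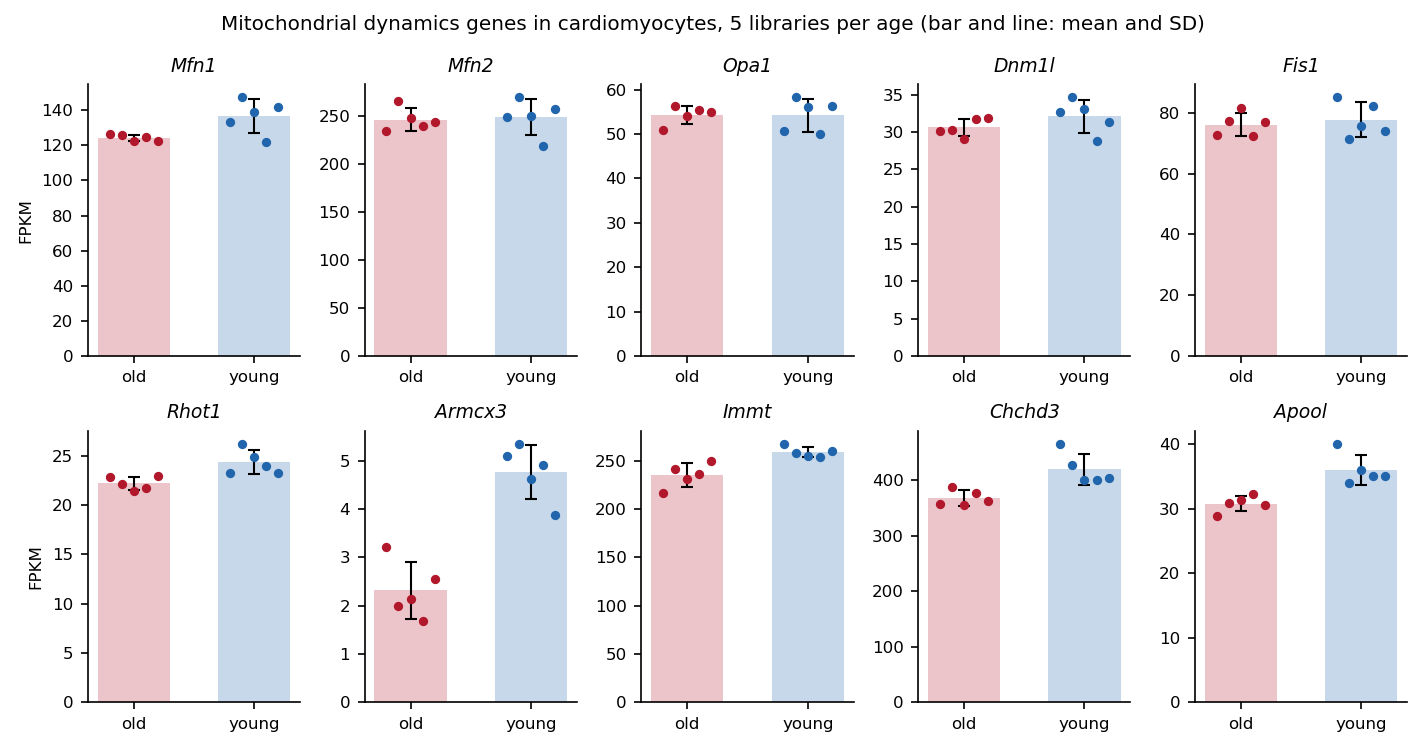
FPKM of the 10 genes in old CMs (red, left) and young CMs (blue, right). Points are the 5 libraries of each age, in the order of their numbers, bars are means and lines are SDs. The ages do not overlap in Rhot1, Armcx3, Immt, Chchd3 and Apool.

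**Figure D2:**
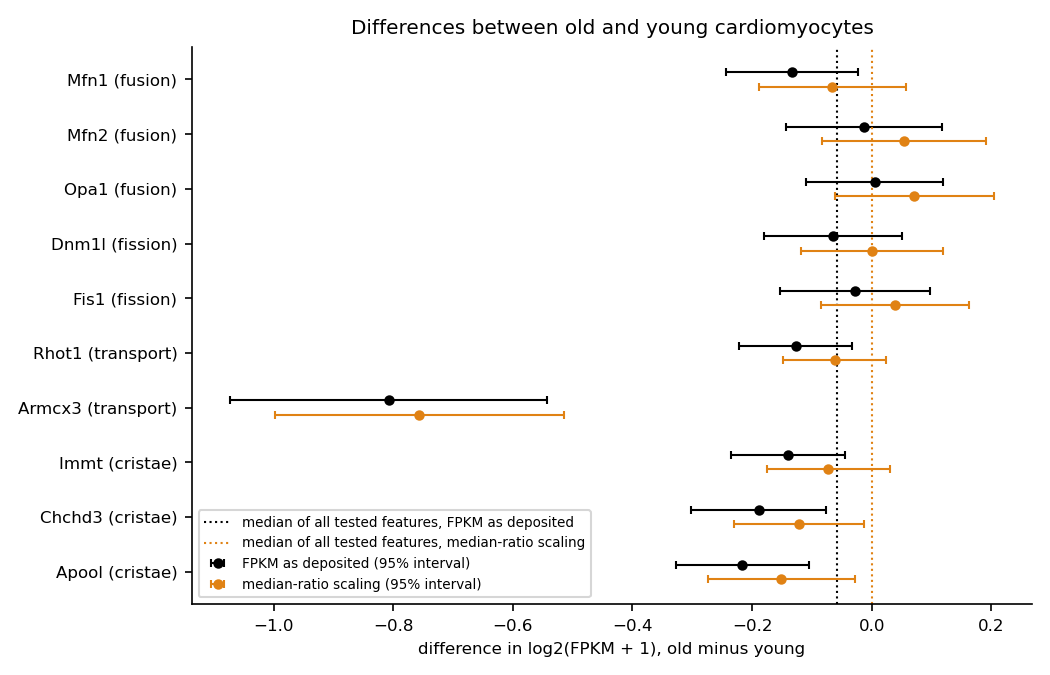
Log2 differences (old minus young) of the 10 genes with 95% intervals, from FPKM as deposited (black) and after median-ratio scaling (orange). Dotted lines mark the medians of all tested features. Armcx3, at -0.81 as deposited and -0.76 after scaling, stands far to the left of the other 9 genes under both.

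The libraries held about 24400000 to 31700000 fragments in old CMs and 25900000 to 31000000 in young CMs, an approximation from the steps between low FPKM values. The 8 CM markers, among them Myh6 and Actc1, averaged 130.1 to 11810.5 FPKM and summed to 34275 to 38801 FPKM in old libraries, against 35912 to 43416 in young libraries. Markers of cell types other than CMs were still detected. The 25 endothelial, fibroblast, leukocyte and mural markers summed to 248.7 to 512 FPKM in old libraries, against 234 to 512 in young libraries, and old library 1 and young library 4 had the highest sums. Their mean log2(FPKM + 1) was 2.87 ± 0.298 in old CMs and 2.87 ± 0.342 in young CMs (SD, n = 5 each, exact permutation test, two-sided, p = 0.992). Armcx3 and Apool lie on the X chromosome. The Y-linked gene Eif2s3y stood at 24.4 to 28.4 FPKM in old libraries, against 25.8 to 30.2 in young libraries, and Xist was at most 0.0063 FPKM in old and 0.0040 in young libraries.

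Armcx3 encodes an armadillo-repeat protein of the outer mitochondrial membrane that takes part in mitochondrial aggregation and movement, as known from neurons. The gene (ENSMUSG00000049047, mm9 chromosome X from 131291134 to 131295994, plus strand, protein coding, 3 annotated transcripts) stood at 3.22, 1.997, 2.15, 1.69 and 2.56 FPKM in old libraries 1 to 5, against 5.09, 5.35, 4.62, 4.92 and 3.88 FPKM in young libraries 1 to 5. The highest old library, number 1, lay below the lowest young library, number 5. The means were 2.32 ± 0.590 FPKM in old CMs and 4.77 ± 0.566 FPKM in young CMs (SD, n = 5 each), so the mean fell by 51.3%. The log2 difference was -0.81 (standard error 0.12, 95% interval -1.07 to -0.54, adjusted p = 0.0147 from limma), and the exact permutation test (two-sided, every arrangement of 5 against 5 libraries) gave its smallest possible p, 0.0079. In RNA of many cells, fewer cells that express a gene and less of its RNA per cell cannot be told apart. The call ended without old library 3 (-0.79, adjusted p = 0.053 from limma) and after each library was rescaled to the same total FPKM (-0.84, adjusted p = 0.182 from limma). It also ended with the replicate number as a block (-0.81, adjusted p = 0.110 from limma). Old library 1, which had the highest stromal marker level of the old libraries, also had the highest Armcx3 level of the old libraries, and without it the log2 difference was -0.90. With the stromal marker level as a covariate the log2 difference was -0.81 (adjusted p = 0.0028 from limma).

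Much of the Armcx3 transcript has near-identical copies elsewhere in the genome, and the authors kept only reads that align to a single place. The annotated transcript of 3488 bases, with its coding part of 1140 bases at positions 626 to 1765, was matched to mm9. A copy on chromosome 7 (135181164 to 135186346, minus strand), in which no annotated gene lies, holds positions 1 to 84 and 265 to 3488 at 99.8% identity or more, and a further copy on chromosome 17 (54485290 to 54487355, minus strand) holds parts of it at 95.2% to 96.7% identity. Of all stretches of the transcript of 50 bases, 85.4% also occur elsewhere letter for letter, and of those of 100 bases 73.9% do. Within the coding part, the chromosome 7 copy differs from Armcx3 by the substitutions C710T and G899A, where the Armcx3 base stands first and positions count from 1 at the first base of the transcript. Outside it, the copy differs at 5 further positions and lacks positions 85 to 264, a stretch of 180 bases ahead of the coding part. Its longer matched parts lie apart on chromosome 7, at 135181164 to 135182601 and at 135184473 to 135186265. The copy is thus interrupted near transcript positions 2052 to 2057. Stretches of 61 bases around the coding substitutions are shown to illustrate how alike the sequences are, with the differing base in capitals.
Armcx3, chrX:131293186-131293246, plus strand: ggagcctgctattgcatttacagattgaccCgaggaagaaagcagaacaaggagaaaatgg
copy, chr7:135185790-135185850, minus strand: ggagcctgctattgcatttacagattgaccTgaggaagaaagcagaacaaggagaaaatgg
Armcx3, chrX:131293375-131293435, plus strand: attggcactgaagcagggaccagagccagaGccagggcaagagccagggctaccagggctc
copy, chr7:135185601-135185661, minus strand: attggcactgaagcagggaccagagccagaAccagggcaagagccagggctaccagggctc
Of all stretches of the transcript, 14.6% of those of 50 bases and 26.1% of those of 100 bases were in none of the sequences matched elsewhere. Reads of that part could be assigned, though the genome was not searched for each stretch. With only single-place reads kept, reads of the rest could be left out, and others could be assigned wrongly. By the approximate depth, its FPKM correspond to about 144 to 315 fragments in old libraries, against 372 to 579 in young libraries. The read length is not given in the sources used here, and the part of the copies in the difference was not tested.

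**Figure D3:**
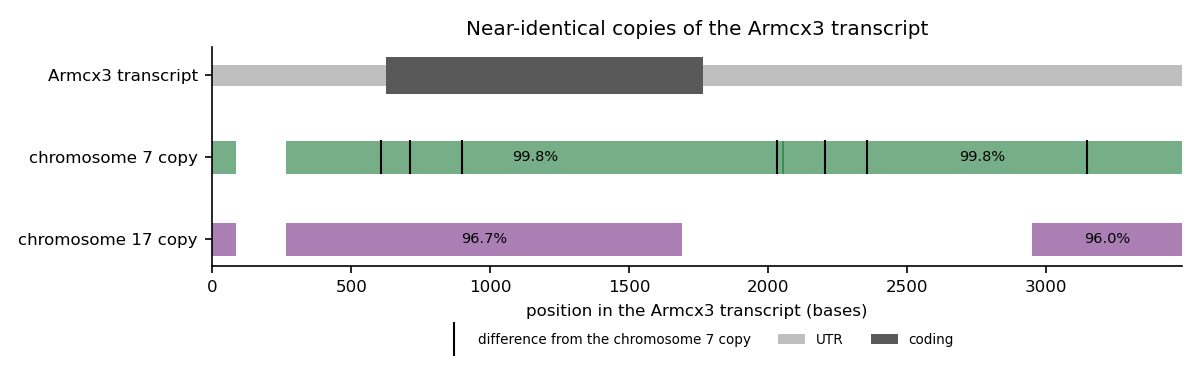
The Armcx3 transcript (top, coding part dark) and the parts of it found on chromosomes 7 and 17 of mm9, along the position in the transcript in bases. Percentages are identities of the longer matches, and black ticks are the 7 positions at which the chromosome 7 copy differs.

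The Armcx genes form a cluster on the X chromosome, and most of the other 5 members were low in CMs. Armcx4 (1.32, 1.197, 0.995, 1.41 and 0.753 FPKM in old libraries 1 to 5, against 2.67, 2.26, 2.46, 1.41 and 1.32 FPKM in young libraries 1 to 5) had a log2 difference of -0.49 (95% interval -0.82 to -0.15, adjusted p = 0.118 from limma). Young library 5 lay in the range of the old libraries, and young library 4 lay just above old library 4, the highest of them. Armcx5 averaged 1.93 ± 0.0823 FPKM in old CMs and 1.91 ± 0.139 FPKM in young CMs (SD, n = 5 each), a log2 difference of 0.012 with a 95% interval of -0.12 to 0.14. Armcx1, Armcx2 and Armcx6 averaged under 1 FPKM over all libraries and were not tested across genes. Armcx1 averaged 0.543 ± 0.129 FPKM in old CMs and 0.868 ± 0.187 FPKM in young CMs (SD, n = 5 each, exact permutation test, two-sided, p = 0.0238). Armcx2 averaged 0.839 ± 0.411 FPKM in old and 0.944 ± 0.356 FPKM in young CMs, and Armcx6 0.149 ± 0.112 FPKM in old and 0.208 ± 0.110 FPKM in young CMs, with overlap in both genes. Armcx3 made up 26.8% to 37.6% of the summed FPKM of the 6 genes in old libraries, against 42.9% to 46.1% in young libraries, a share that was computed after the values had been seen. Armcx3 reads left out because of its copies could lower this share, which was not tested.

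**Figure D4:**
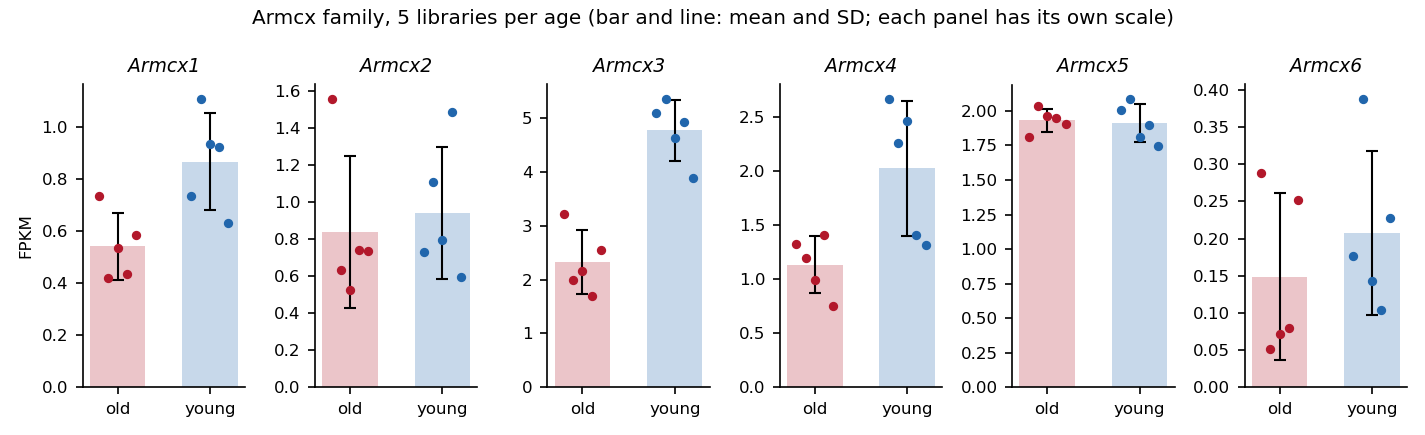
FPKM of the 6 Armcx genes in old CMs (red, left) and young CMs (blue, right), each panel on its own scale from 0. Points are the 5 libraries of each age, bars are means and lines are SDs. Armcx3 is the only panel in which the ages do not overlap.

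Rhot1 encodes Miro1, a calcium-binding GTPase that couples mitochondria to kinesin and dynein through the TRAK adaptors. The gene (ENSMUSG00000017686, mm9 chromosome 11 from 80022521 to 80081409) had 22.8, 22.2, 21.4, 21.7 and 22.9 FPKM in old libraries 1 to 5, against 23.3, 26.2, 24.9, 24.0 and 23.3 FPKM in young libraries 1 to 5. The ages stood just apart, with old libraries 1 and 5 close beneath young libraries 1 and 5. Rhot1 had a log2 difference of -0.13 (95% interval -0.22 to -0.032, adjusted p = 0.135 from limma, exact permutation p = 0.0079), and with median-ratio scaling it was -0.062 and the ages overlapped. Its paralog Rhot2 (Miro2) was the more abundant Miro gene, at 85.2 ± 3.58 FPKM in old and 90.9 ± 5.23 FPKM in young CMs (SD, n = 5 each), with a log2 difference of -0.091 (95% interval -0.20 to 0.018, adjusted p = 0.324 from limma).

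The 3 cristae genes were the members with the next lower values in old CMs, and all 3 separated the ages as deposited. Chchd3 encodes Mic19, which ties Mic60 to the outer membrane complex. The gene (ENSMUSG00000053768, mm9 chromosome 6 from 32740976 to 33010260, minus strand) was the most abundant of the 10, with 357, 387, 356, 378 and 362 FPKM in old libraries 1 to 5, against 466, 428, 401, 401 and 405 FPKM in young libraries 1 to 5. Young library 1 stood highest, and young libraries 3, 4 and 5 lay close together just above the old ones. The means were 368 ± 14.0 FPKM in old CMs and 420.1 ± 27.8 FPKM in young CMs (SD, n = 5 each), a log2 difference of -0.19 (95% interval -0.30 to -0.076, adjusted p = 0.0872 from limma, exact permutation p = 0.0079), and -0.12 with median-ratio scaling.

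Immt encodes Mic60 (mitofilin), the core subunit of MICOS that bends the inner membrane at the crista neck. The gene (ENSMUSG00000052337, mm9 chromosome 6 from 71781325 to 71827382) had 216, 242, 231, 236 and 249.9 FPKM in old libraries 1 to 5, against 267, 257, 255, 254 and 259.9 FPKM in young libraries 1 to 5. Old library 1 was the lowest and old library 5 stood closest to young library 4, the lowest young library. The means were 235 ± 12.6 FPKM in old CMs and 259 ± 5.29 FPKM in young CMs (SD, n = 5 each), a log2 difference of -0.14 (95% interval -0.24 to -0.044, adjusted p = 0.117 from limma, exact permutation p = 0.0079), and -0.072 with median-ratio scaling. A copy of part of the Immt transcript, 22.3% of its bases at 95% identity or more, lies elsewhere in the genome. Some of its reads could thus be left out or assigned wrongly.

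Apool encodes Mic27, a MICOS subunit of the apolipoprotein O family that binds cardiolipin, the signature lipid of the inner membrane. The gene (ENSMUSG00000025525, mm9 chromosome X from 109424943 to 109486364) had 28.9, 30.9, 31.3, 32.2 and 30.6 FPKM in old libraries 1 to 5, against 40.0, 33.9, 36.0, 35.0 and 35.0 FPKM in young libraries 1 to 5. The highest old library, number 4, lay below the lowest young library, number 2. The log2 difference was -0.22 (standard error 0.05, 95% interval -0.33 to -0.11, adjusted p = 0.0622 from limma, exact permutation p = 0.0079), the second lowest of the 10 genes. It passed the threshold when the test was limited to features averaging 5 FPKM or more (adjusted p = 0.0496 from limma), with array weights (0.0479) and with the stromal marker level as a covariate (0.0452). In the other 18 of 21 alternatives it did not pass, among them each fit without 1 library (adjusted p = 0.067 to 0.132 from limma). With median-ratio scaling the log2 difference was -0.15 (0.262). Its paralog Apoo (Mic26) averaged 103 ± 6.75 FPKM in old CMs and 115 ± 4.68 FPKM in young CMs (SD, n = 5 each), a log2 difference of -0.16 (limma, adjusted p = 0.124).

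The promoters of the 3 cristae genes are shown because each of these genes separated the ages as deposited, though none passed the test and none separated them after median-ratio scaling. They are RefSeq sequences of GRCm38.p6, each from 250 bases before to 50 bases after the start of the gene, and are given on the strand of the gene. Capitals mark matches on either strand to the letters of NRF1 (GCGCA and GCGC with any base between them) and of GABPA (CCGGAAG), a pair of factors known to act on nuclear genes of mitochondria. No 2 of these motifs overlap.
Immt, chr6:71831070-71831369, plus strand: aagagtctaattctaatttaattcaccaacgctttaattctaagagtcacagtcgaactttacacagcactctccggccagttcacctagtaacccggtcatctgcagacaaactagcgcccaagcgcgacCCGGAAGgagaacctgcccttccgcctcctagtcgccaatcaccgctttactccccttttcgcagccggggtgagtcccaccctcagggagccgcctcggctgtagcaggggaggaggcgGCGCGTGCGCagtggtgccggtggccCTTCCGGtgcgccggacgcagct
Chchd3, chr6:33060211-33060510, minus strand: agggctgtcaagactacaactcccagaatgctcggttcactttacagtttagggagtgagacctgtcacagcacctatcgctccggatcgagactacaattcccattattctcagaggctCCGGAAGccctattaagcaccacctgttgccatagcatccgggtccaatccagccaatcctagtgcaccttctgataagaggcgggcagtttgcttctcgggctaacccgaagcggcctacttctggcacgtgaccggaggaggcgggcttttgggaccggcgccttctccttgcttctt
Apool, chrX:112311102-112311401, plus strand: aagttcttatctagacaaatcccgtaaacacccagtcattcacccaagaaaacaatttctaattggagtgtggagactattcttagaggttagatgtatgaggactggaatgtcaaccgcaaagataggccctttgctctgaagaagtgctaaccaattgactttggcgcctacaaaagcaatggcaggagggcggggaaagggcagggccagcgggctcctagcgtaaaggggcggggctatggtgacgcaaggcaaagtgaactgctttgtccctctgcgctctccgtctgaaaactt
Immt held both motifs, Chchd3 the GABPA letters, and Apool neither. Over the 9 of the 10 genes that matched an entry, the NRF1 letters were found in 2 (Immt and Opa1), against 4.60% of 32851 promoters, and the GABPA letters in 5 (Immt, Chchd3, Dnm1l, Fis1 and Mfn1), against 8.86% of promoters. A gene counted if any of its promoters matched, while the percentages are shares of single promoters, so they are not like measures. Mfn2, Fis1 and Dnm1l have several promoters, and not all of those of Dnm1l held the GABPA letters. The letters TNAAGGTCA of the oestrogen-related receptors were in 0 of the 9 and in 1.28% of promoters. These are matches of letters, and genes with and without them were among those that separated the ages.

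None of the fusion genes passed the test, and all 3 overlapped between the ages. Mfn1 (ENSMUSG00000027668, mm9 chromosome 3 from 32428387 to 32478161) had 126, 126, 122, 125 and 122 FPKM in old libraries 1 to 5, against 133, 147, 139, 122 and 142 FPKM in young libraries 1 to 5. The old libraries lay within a narrow band, and young library 4, the lowest of all 10, was the only young library that reached it. Mfn1 had a log2 difference of -0.13 (95% interval -0.24 to -0.023, adjusted p = 0.167 from limma, exact permutation p = 0.0476), and -0.065 with median-ratio scaling. Without young library 4 the difference in mean FPKM was -16.0 (exact permutation p = 0.0079), and leaving out 1 of 8 other libraries brought the exact permutation p to between 0.0556 and 0.0714.

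Mfn2, which also tethers mitochondria to the sarcoplasmic reticulum in CMs, was the more abundant mitofusin. The gene (ENSMUSG00000029020, mm9 chromosome 4 from 147247708 to 147278813, minus strand) had 235, 267, 248, 239.6 and 245 FPKM in old libraries 1 to 5, against 249.6, 269.8, 251, 219 and 257 FPKM in young libraries 1 to 5. The ages overlapped almost wholly, and the log2 difference was -0.013 (95% interval -0.14 to 0.12, adjusted p = 0.933 from limma). Opa1 (ENSMUSG00000038084, mm9 chromosome 16 from 29579420 to 29654970) averaged 54.3 ± 2.002 FPKM in old CMs and 54.2 ± 3.73 FPKM in young CMs (SD, n = 5 each), and its libraries ran between 51.0 and 56.2 FPKM in old CMs, against 49.9 and 58.3 FPKM in young CMs. Its log2 difference was 0.0051 (95% interval -0.11 to 0.12, adjusted p = 0.972 from limma). The interval of Mfn2 includes a difference of the size seen in Mfn1, and that of Opa1 ends short of it.

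Neither fission gene passed the test, and both overlapped between the ages. Dnm1l (ENSMUSG00000022789, mm9 chromosome 16 from 16312328 to 16359123, minus strand) had 30.1, 30.3, 29.1, 31.8 and 31.8 FPKM in old libraries 1 to 5, against 32.7, 34.6, 33.1, 28.8 and 31.3 FPKM in young libraries 1 to 5. Young libraries 1, 2 and 3 lay above every old library and young library 4 below every one. Its log2 difference was -0.064 (95% interval -0.18 to 0.051, adjusted p = 0.540 from limma, exact permutation p = 0.246), and without young library 4 the exact permutation p was 0.0476. Fis1, a tail-anchored outer-membrane protein that can recruit fission factors, (ENSMUSG00000019054, mm9 chromosome 5 from 137429145 to 137442104) had 72.8, 77.4, 81.6, 72.4 and 77.0 FPKM in old libraries 1 to 5, against 85.1, 71.5, 75.9, 82.4 and 74.2 FPKM in young libraries 1 to 5. Young libraries 1 and 4 were its highest, unlike in the fusion genes and Dnm1l, in which young library 4 was the lowest young library. Fis1 had a log2 difference of -0.028 (95% interval -0.15 to 0.097, adjusted p = 0.833 from limma). With median-ratio scaling the differences of Mfn2, Dnm1l and Fis1 turned to 0.055, 0.0014 and 0.039, and none passed the test.

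In level, 9 of the 10 genes stood at percentile 78.9 or higher among the tested features, and Armcx3 stood at percentile 30.6. Reads of Armcx3 could be left out because of its copies, so its FPKM and rank could understate its level, which was not tested. By mean FPKM over all 10 libraries the order was Chchd3 (394), Mfn2 (248), Immt (247), Mfn1 (130.4), Fis1 (77.0), Opa1 (54.3), Apool (33.4), Dnm1l (31.4), Rhot1 (23.3) and Armcx3 (3.55). Most neighbours in this order kept their places in all 10 libraries. Mfn2 and Immt did not differ beyond their spread, with Mfn2 above Immt in 4 of 5 old libraries and in 1 of 5 young libraries, and Apool lay above Dnm1l in 3 of 5 old libraries and in 4 of 5 young libraries. The other 9 genes varied little between libraries, with a highest value of 1.17 to 1.38 times the lowest, against 3.17 times in Armcx3. The libraries differed in which genes they held low. Young library 4 was the lowest of the young libraries in 5 of the 10 genes, young library 2 was the highest of all 10 libraries in 6, and old libraries 1 and 3 were the lowest old libraries in 4 and 3.

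Of 58 further genes of fusion, fission, transport and cristae, 57 were found in the table and 46 were tested, and limma called 0 lower and 0 higher, against 1.09% and 0.689% of all tested features. The unadjusted p was under 0.05 with a lower level in old CMs in 14 of the 46 and with a higher level in 1, where the shares of all tested features were 17.4% and 3.51%. All old libraries lay below all young ones in 4 of the 46, against 5.72% of all tested features. The median log2 difference of the 46 genes was -0.094, and -0.027 with median-ratio scaling.

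In the cristae group, all 10 further genes had log2 differences below 0, as had 68.7% of all tested features. Their median was -0.13, against -0.058 for all tested features, and 8 of the 10 genes lay below that value. The 2 with the smallest p were Letm1, an inner-membrane protein of cation exchange, and Chchd2, a small intermembrane-space protein. Letm1 averaged 21.6 ± 0.671 FPKM in old CMs and 25.8 ± 2.80 FPKM in young CMs (SD, n = 5 each), a log2 difference of -0.24 (limma, adjusted p = 0.0919). Chchd2 averaged 433 ± 15.3 FPKM in old CMs and 501 ± 50.6 FPKM in young CMs (SD, n = 5 each), a log2 difference of -0.20 (limma, adjusted p = 0.120). Both separated the ages, and young library 1 was the highest library in both, as it was in Chchd3, Immt and Apool. Chchd6 (Mic25), the closest paralog of Chchd3, was far less abundant, at 8.55 ± 0.693 FPKM in old CMs and 9.07 ± 2.13 FPKM in young CMs (SD, n = 5 each), a log2 difference of -0.056 (95% interval -0.32 to 0.21).

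In the fusion group, the 2 genes with the smallest p were Mtch2, an outer-membrane insertase, and Fam73b (Miga2), which promotes fusion on the outer membrane. Mtch2 averaged 79.6 ± 1.92 FPKM in old CMs and 90.4 ± 4.86 FPKM in young CMs (SD, n = 5 each), with no overlap and a log2 difference of -0.18 (limma, adjusted p = 0.0662). Fam73b had a log2 difference of -0.18 (limma, adjusted p = 0.105). In the fission group these were Smcr7l (Mief1, also MiD51) and Smcr7 (Mief2, also MiD49), the outer-membrane receptors of Dnm1l, at -0.18 and -0.16 (adjusted p = 0.153 and 0.188 from limma). The median of the 13 tested fission genes was -0.043, above that of all tested features.

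In the transport group the smallest p values ran in opposite directions. Kif5b, the heavy chain of conventional kinesin, had 36.9, 34.9, 35.0, 32.6 and 30.99 FPKM in old libraries 1 to 5, against 29.6, 31.2, 26.3, 28.7 and 30.5 FPKM in young libraries 1 to 5. Old library 5 alone lay below the highest young library, number 2. Its log2 difference was 0.21 (95% interval 0.082 to 0.34, adjusted p = 0.0951 from limma), the highest of the 46 genes. Mtx1, a metaxin of the outer membrane, averaged 20.7 ± 1.74 FPKM in old CMs and 25.0 ± 2.28 FPKM in young CMs (SD, n = 5 each), with no overlap and a log2 difference of -0.26 (limma, adjusted p = 0.0989). Trak1 and Trak2, the adaptors between Miro and the motors, had log2 differences of -0.015 and 0.027.

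**Figure D5:**
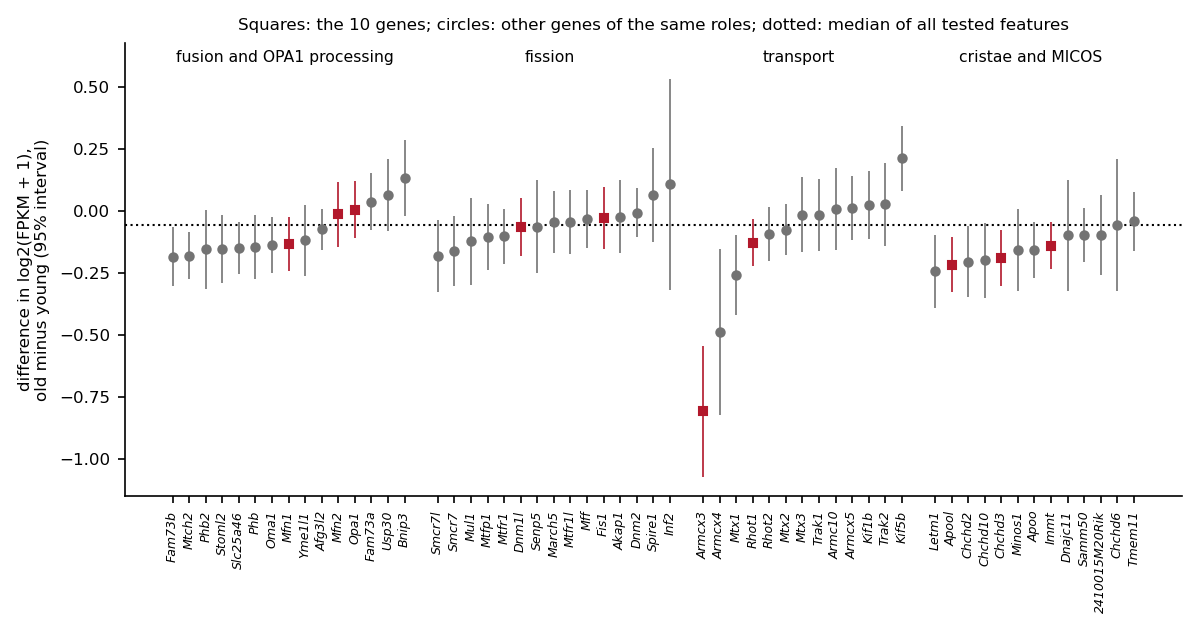
Log2 differences (old minus young) with 95% intervals of the 10 genes (red squares) and the 46 other tested genes of the same roles (grey circles), ordered by value within each role. The dotted line is the median of all tested features, -0.058. Armcx3 lies lowest, and Kif5b is the gene farthest above the line whose interval does not reach 0.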

How the data were processed

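Per the labels and the methods of the study, the authors aligned paired-end reads to mm9 with TopHat, kept uniquely aligned reads (Ensembl annotation) and determined FPKM for each library with Cufflinks. The deposited FPKM of 37819 features in 10 libraries (5 old, 5 young) were used as given, after 1 stray header line was removed. The authors' DESeq2 comparison of HTSeq counts holds normalized means, fold changes, test statistics and p-values and was not used, nor were its 10 columns of values per sample. No count test was run, since FPKM are not counts. Depth was approximated from low FPKM of single-transcript genes with exons of 2000 to 6000 bases, where 69.9% to 76.2% of the products of FPKM and length lay within 0.15 of a whole multiple of the most frequent step.

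The 12340 features that averaged 1 FPKM or more entered limma 3.58.1 (lmFit, eBayes with a trend, run in R 4.3.3) on log2(FPKM + 1), a pseudocount of 1, two-sided, with Benjamini-Hochberg adjustment over all of them. This scale understates the change of low genes such as Armcx3. Member FPKM were also compared with two-sided exact permutation tests of 5 against 5 libraries, with no adjustment over the 10 tests. Alternatives were a pseudocount of 0.1, no filter, a mean of at least 5 FPKM, median-ratio, upper-quartile and total scaling, the replicate number as a block, robust eBayes, array weights, a stromal marker covariate, and each library left out. Copies were searched with blastn 2.17.0 (at least 95% identity over at least 100 bases), and plots were drawn with matplotlib 3.10.9 in Python 3.11.15. Coordinates are from GENCODE on mm9, an earlier release than the authors' annotation. Annotated pseudogenes lie within Mfn2 and Chchd3 on the opposite strand, and whether counting used strand is not given in the sources used here.

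The 10 genes and the lists were chosen with earlier results of these data known. Named genes are the 10, their closest paralogs and, of the other listed genes in each role, those called or else the 2 with the smallest p. Trak1, Trak2, Xist and Eif2s3y were named after their values were seen.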

Additional observations from a re-analysis of the deposited data

How the results depend on the processing

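Of the 10 genes, 1 (Armcx3) was called lower as deposited, 0 after rescaling to the same total, 2 (Armcx3 and Apool) with array weights and with the stromal covariate, and 0 to 1 when 1 library was left out (0 without old library 3). Over all features, the calls of lower genes numbered 135 as deposited, 9 with total scaling, 197 with array weights, 168 with the covariate and 9 without old library 3. With a mean of at least 5 FPKM the 1 call was Apool, since Armcx3 was below that filter, and 158 of all 7342 tested features were called lower. The median of the 10 genes was -0.064 with median-ratio, -0.044 with upper-quartile and -0.18 with total scaling, where that of all features was -0.00012, 0.016 and -0.093. In the wider list, 1 gene (Mtch2) was called lower with array weights, 1 (Kif5a) higher without a filter and 1 (Kif5b) higher with upper-quartile scaling, which put the median of the wider list at -0.0069. Over all features, the calls of higher genes numbered 88 of 25202 without a filter and 135 of 12340 with upper-quartile scaling. Armcx3, Rhot1, Immt, Chchd3, Apool and Mfn1 were lower in old CMs under each alternative that tested them.

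Small differences changed sign. With upper-quartile scaling, Mfn2, Dnm1l and Fis1 stood at 0.074, 0.021 and 0.059, and with median-ratio scaling at 0.055, 0.0014 and 0.039. Opa1 stood at -0.042 with total scaling, -0.013 with array weights and -0.0015 without young library 4 and old library 1 together, and Fis1 at 0.012 with array weights and 0.0090 without those libraries. When 1 library was left out, log2 differences ran from -0.059 to 0.016 for Mfn2, -0.024 to 0.031 for Opa1 and -0.057 to 0.0047 for Fis1, and differences in mean FPKM from -10.2 to 2.56, -0.956 to 1.13 and -3.18 to 0.223.

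With the replicate block, 0 of the 10 genes were called (Armcx3 -0.81, adjusted p = 0.110 from limma) and, over all features, 7 were lower and 19 higher. The labels link same-numbered libraries by number alone. Their deviations from the age means correlated at -0.16 to 0.062, which cannot show whether they were paired. The cause of these changes was not tested. Depth is approximate, and it limits low genes such as Armcx3 and Armcx4 most.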

Other observations

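Ratios within a library do not depend on how libraries are scaled. These were computed after the values had been seen and are given without a test. Mfn1 over Mfn2 was 0.538, 0.472, 0.493, 0.521 and 0.4997 in old libraries 1 to 5, against 0.533, 0.546, 0.554, 0.558 and 0.551 in young libraries 1 to 5. Old library 1 alone lay among the young libraries. Chchd3 over Mfn2, a cristae gene over a fusion gene, was 1.49 ± 0.0572 in old CMs and 1.69 ± 0.145 in young CMs (SD, n = 5 each), and Immt over Opa1 was 4.32 ± 0.129 in old CMs and 4.79 ± 0.374 in young CMs (SD, n = 5 each), with overlap in both. Young libraries 1 and 4 had the highest values of both ratios.

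Other ratios overlapped more. Chchd3 over Immt was 1.57 ± 0.0776 in old CMs and 1.62 ± 0.0784 in young CMs, Apool over Apoo 0.299 ± 0.0179 in old CMs and 0.312 ± 0.0108 in young CMs, and Rhot1 over Rhot2 0.261 ± 0.0154 in old CMs and 0.269 ± 0.0214 in young CMs (SD, n = 5 each). The summed FPKM of Mfn1, Mfn2 and Opa1 over that of Dnm1l and Fis1 was 3.84 to 4.17 in old libraries, against 3.51 to 4.48 in young libraries, so the young libraries spanned the whole range of the old ones.

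Kif5a, a kinesin heavy chain best known from neurons, was below the filter at 0.170, 0.198, 0.210, 0.245 and 0.265 FPKM in old libraries 1 to 5, against 0.0935, 0.0823, 0.0953, 0.103 and 0.134 FPKM in young libraries 1 to 5 (exact permutation test, two-sided, p = 0.0079). Every old library lay above every young one, at levels that rest on few fragments.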
